A study of Rattus norvegicus with 9 samples.

Results

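Protocadherins are cell-surface adhesion proteins of the cadherin superfamily, and they were followed here in the amygdala of ovariectomized rats with and without estradiol. The members are the non-control probes whose gene name in the scanner files starts with Pcdh: 73 of 45598 probes, for 54 of 34912 gene names. By name they fall into 4 sets: the alpha cluster with 9 probes for 8 genes, the beta cluster with 20 probes for 18 genes, the gamma cluster with 20 probes for 16 genes, and the non-clustered protocadherins with 24 probes for 12 genes. All animals were female SHR rats, a strain with inherited hypertension, and each had both ovaries removed when 4 weeks old. The pumps were placed under the skin 1 week later: they held polyethylene glycol alone in the OV group (4 rats) and released 2 µg of estradiol a day in the same vehicle in the OV+E2 group (5 rats). The amygdala of both sides was dissected when the rats were 9 weeks old, and the RNA of each rat was hybridised to its own 1-colour array of 60-base probes. Rats with intact ovaries and other strains are not part of the design, so the comparison is of estradiol replacement with its absence in ovariectomized SHR.

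The alpha, beta and gamma genes stand in tandem on rat chromosome 18. In the alpha and gamma clusters each member has its own variable first exon with its own promoter, which encodes the extracellular and membrane parts and is spliced to constant exons that all members of the cluster share; beta members are single exons with no constant part. A neuron uses a subset of these promoters, and the combination of proteins on its surface lets it recognise its own branches. Promoter choice is known to depend on CTCF, cohesin and DNA methylation. The non-clustered protocadherins are single genes elsewhere in the genome, with roles in axon growth, cell sorting and synapses.

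The probe sequences, as the scanner files give them, show what each measurement can tell apart, because neighbouring members are close copies. Probe positions are those of the scanner files (rat build rn4, plus strand of chromosome 18 for the clusters). Pcdha5 and Pcdha7 are the closest pair of differently named probes among the clustered members by the search used here (at least 40 overlapping bases): 49 of the 53 overlapping bases match. The Pcdha5 probe lies at chr18:29693192-29693251 and the Pcdha7 probe at chr18:29706119-29706178. Capitals mark the bases that differ within the overlap.
Pcdha5: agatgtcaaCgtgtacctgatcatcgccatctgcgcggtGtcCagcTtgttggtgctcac
Pcdha7: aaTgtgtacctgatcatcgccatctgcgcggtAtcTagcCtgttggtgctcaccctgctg
With 4 mismatches, RNA of one member could bind the probe of the other, and how far it did was not tested. Both probes cleared background on all 9 arrays (the scanner's flag for signal well above background, used throughout).

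The variable-exon probes of Pcdhga7 (chr18:30626746-30626805) and Pcdhga8 (chr18:30637535-30637594) match at 45 of 60 bases, again with the differing bases in capitals.
Pcdhga7: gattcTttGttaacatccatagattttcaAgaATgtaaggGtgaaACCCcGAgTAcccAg
Pcdhga8: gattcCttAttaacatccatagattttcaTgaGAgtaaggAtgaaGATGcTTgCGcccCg
At 15 mismatches the pair was read differently: the Pcdhga8 probe cleared background on 8 arrays and the Pcdhga7 probe on 0. The 2 Pcdha1 probes, at the other extreme, have the same 60 bases and the same coordinates, so they are 1 measurement printed under 2 names.

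The probe with the smallest p of the family is that of Pcdhga2, in the variable exon at chr18:30577297-30577356. It is shown because it was the protocadherin probe that passed the adjusted level under more than 1 alternative processing.
Pcdhga2: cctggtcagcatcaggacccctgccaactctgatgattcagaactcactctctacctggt
The probe named Pcdhgc5 (chr18:30752332-30752391) is shown because its place in the cluster decides what it reads.
Pcdhgc5: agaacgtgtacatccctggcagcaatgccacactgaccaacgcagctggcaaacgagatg
The files list only Pcdhgc5 transcripts for it. By position, however, it lies beyond every variable-exon probe of the cluster and close to the 2 probes named Pcdhga7 at chr18:30753478-30753537 and chr18:30753987-30754046, which the files also assign to Pcdhga5, Pcdhga9 and Pcdhga12. These 3 probes lie at the shared 3′ end of the cluster, and a probe in shared sequence reads gamma transcripts together and no member singly. In the alpha cluster the probe named Pcdhac2 (chr18:29927152-29927211) also carries a Pcdha6 accession and was treated in the same way.

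One array stands apart and touches most results below. On OV replicate 3 the signal at the 75th percentile was 129.7, against 556.8 to 737.6 on the other 8 arrays, and 24225 probes cleared background against 29052 to 31395. It lay below all other arrays for 33.5% of tested probes and above them all for 40.1%, together 73.6%, and outside their range for 34 of the 43 tested protocadherin genes (lowest in 18, highest in 16). Protocadherin differences below are therefore given with and without it. The arrays came from 2 slides: slide 1 held OV replicates 1, 2 and 3 and OV+E2 replicates 1 and 2, and slide 2 held the others. In bulk tissue, fewer cells of a type and less RNA per cell cannot be told apart.

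No protocadherin gene passed the test between the groups on all 9 arrays. Levels are log2 signal relative to the 75th percentile of the array, probes that cleared background on 4 or more of the 9 arrays entered the test, and the brightest tested probe represents a gene. Differences are OV+E2 minus OV. Of 54 genes, 43 were tested (57 probes): 7 alpha, 15 beta, 10 gamma and 11 non-clustered. The smallest Benjamini-Hochberg adjusted p of the family in limma was 0.251, and over all 30215 probes it was 0.156, with 0% called. At an unadjusted p under 0.05 in limma there were 8 genes, or 18.6% of those tested, where 10.4% of all probes reached that level. Of these, 6 were lower with estradiol (Pcdhga2, Pcdha6, Pcdhga4, Pcdha3, Pcdhb10 and Pcdhgc5), against 7.17% of all probes, and 2 were higher (Pcdh20 and Pcdh18), against 3.21%. All 6 lower genes belong to the clusters and both higher ones are non-clustered; whether the sets differ was not tested. Without OV replicate 3 the counts were 6 lower and 4 higher, against 8.26% and 5.86% of all probes (either direction 14.1%), 1 probe of the array passed the adjusted level (0.00331%) and it was no protocadherin, and 10 of the 43 genes changed sign.

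**Figure D1:**
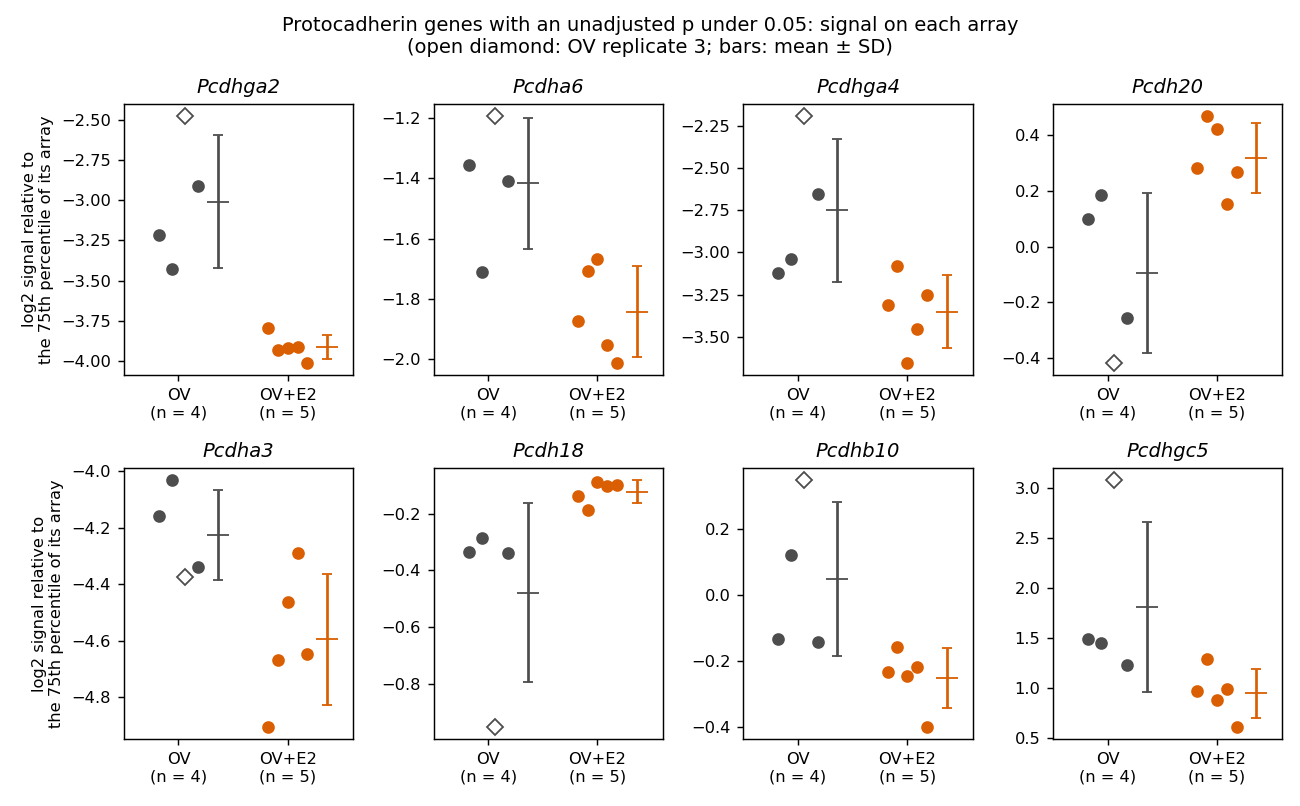
Log2 signal relative to the array's 75th percentile on each array for the 8 protocadherin genes with an unadjusted p under 0.05, with group mean ± SD; the open diamond is OV replicate 3. The groups do not overlap for Pcdhga2 and Pcdhb10 (2 lower of 43 tested genes, against 4.02% of all tested probes). They also do not overlap for Pcdh18 (1 higher, against 2.89%). OV replicate 3 is the OV array farthest from the OV+E2 arrays in 7 of the 8 panels, all but Pcdha3.

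The 4 sets had medians close to that of all probes. The median log2 difference was -0.06 for the alpha genes, 0.02 for beta, 0.07 for gamma and 0.10 for non-clustered, beside 0.00 over all tested probes. Over the 43 genes, 18 were lower and 25 higher, and without OV replicate 3 there were 26 lower. The 4 medians then became -0.09, -0.06, 0.04 and 0.01. Of the 4, the beta median changed sign. The gamma median depended on the detection rule. It was -0.45 with no filter on dim probes, where the 6 untested members enter and the median of all probes was -0.13. It was -0.60 over the 5 gamma genes that cleared background on all 9 arrays, where the other tested members drop out. The median of all probes was -0.02 there.

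**Figure D2:**
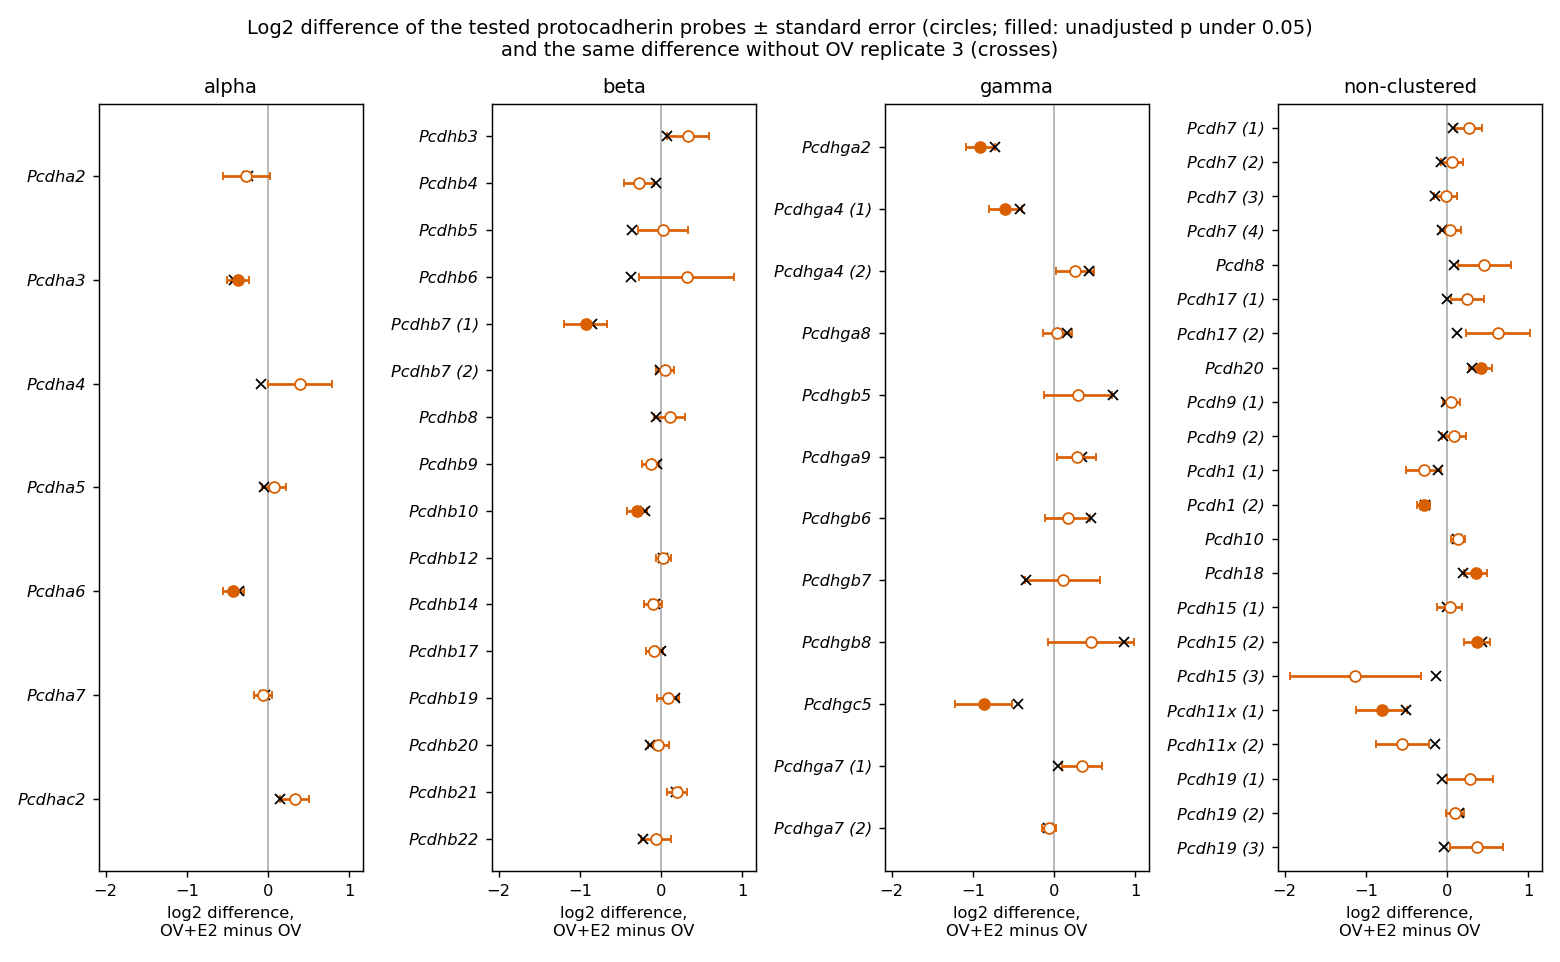
Log2 difference OV+E2 minus OV ± standard error for the 57 tested probes, by set and in order along the chromosomes (circles, filled where the unadjusted p was under 0.05), with the difference without OV replicate 3 as crosses. The crosses lie close to the circles for Pcdha3, Pcdha6 and the second Pcdh1 probe and far from them for the third Pcdh15 probe, which went from -1.13 to -0.13.

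In the alpha cluster 2 variable-exon members were lower with estradiol at the unadjusted level. Pcdha6 stood at -1.35, -1.71, -1.19 and -1.41 on the OV arrays (mean -1.42 ± 0.22 SD, n = 4) and at -1.87, -1.71, -1.67, -1.95 and -2.01 on the OV+E2 arrays (mean -1.84 ± 0.15 SD, n = 5). The groups meet at OV replicate 2, the lowest OV array. The log2 difference was -0.43 (SE 0.13), a 1.34-fold lower signal, with unadjusted p = 0.00905 and adjusted p = 0.317 in limma. It was -0.37 within slide 1, -0.47 within slide 2 and -0.35 without OV replicate 3.

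Pcdha3 read -4.16, -4.03, -4.37 and -4.34 with vehicle and -4.91, -4.67, -4.46, -4.29 and -4.65 with estradiol. Only OV+E2 replicate 4, at -4.29, reached into the OV range. Estradiol minus vehicle gave a log2 difference of -0.37 (SE 0.14), with unadjusted p = 0.0266 and adjusted p = 0.417 in limma, and it was -0.60 within slide 1 and -0.13 within slide 2. Without OV replicate 3 it was -0.42.

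The other alpha probes gave no shared direction on 9 arrays. Without OV replicate 3 all 6 tested variable-exon alpha genes were lower, some by little. Pcdha5 and Pcdha7, the pair of similar probes, differed by 0.07 and -0.06 (both -0.04 without OV replicate 3), and Pcdha2 by -0.27 (SE 0.29; -0.24 without it). Pcdha4 had a difference of 0.39 (SE 0.40, unadjusted p = 0.348 and adjusted p = 0.615 in limma) that rested on OV replicate 3 at -5.46, where the other 8 arrays ran from -4.11 to -3.34; without it the difference was -0.09. The 3′ probe named Pcdhac2, an isoform known for its role in spacing serotonergic axons, read 3.11, 2.86, 2.26 and 2.93 with vehicle and 3.09, 2.95, 3.43, 3.1 and 3.04 with estradiol. Its difference was 0.33 (SE 0.18, unadjusted p = 0.0972 and adjusted p = 0.513 in limma), and 0.15 without OV replicate 3. With this probe left out the alpha median was -0.16, with or without OV replicate 3. The same step in the gamma cluster, leaving out its 3′-end probes, moved that median upward, to 0.14 (0.25 without OV replicate 3). Pcdha1 cleared background on 2 arrays, both OV+E2, and was not tested.

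The beta cluster had the most tested genes. Of its 15 tested genes 7 were lower and 8 higher, with 10 lower and 5 signs turned without OV replicate 3, and 1 reached an unadjusted p under 0.05 (6.67%, where 10.4% of all probes did). That gene was Pcdhb10, with -0.13, 0.12, 0.35 and -0.14 on the OV arrays and -0.23, -0.16, -0.25, -0.22 and -0.40 on the OV+E2 arrays. Every OV array lay above every OV+E2 array, a separation in this direction that 4.02% of all tested probes had. The log2 difference was -0.30 (SE 0.12), with unadjusted p = 0.0356 and adjusted p = 0.450 in limma. Without OV replicate 3 it was -0.20 with an unadjusted p of 0.0501 in limma, and with the slide as a block it was -0.25 with an unadjusted p of 0.0833. Within slides 1 and 2 it was -0.31 and -0.15.

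Among the other beta genes the estimates were small or wide. Pcdhb4 differed by -0.27 (SE 0.19, unadjusted p = 0.189 and adjusted p = 0.530 in limma), and by -0.06 without OV replicate 3. Pcdhb21 differed by 0.20 (SE 0.12, unadjusted p = 0.133 and adjusted p = 0.519), with all 4 OV arrays between -3.22 and -3.12; the difference was -0.04 within slide 1 and 0.38 within slide 2, and 0.19 without OV replicate 3. Pcdhb3 differed by 0.33 (SE 0.26, unadjusted p = 0.229 and adjusted p = 0.545), and by 0.08 without OV replicate 3. Pcdhb5 shows how that array could hide an ordered pattern. Its OV arrays read -2.09, -2.47, -3.84 and -2.39 and its OV+E2 arrays ran from -2.75 to -2.54, a difference of 0.02. Without OV replicate 3 the groups did not overlap and the difference was -0.36, with unadjusted p = 0.00683 in limma; this gene was singled out after its values were seen. In that set of 8 arrays, 5.43% of all probes separated in this direction.

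Pcdhb6 (0.32, SE 0.59) and Pcdhb8 (0.11) turned to -0.37 and -0.06 without OV replicate 3. The remaining beta genes differed by -0.12 (Pcdhb9), 0.03 (Pcdhb12), -0.10 (Pcdhb14), -0.08 (Pcdhb17), 0.09 (Pcdhb19), -0.03 (Pcdhb20) and -0.06 (Pcdhb22). Without that array, in the same order, they differed by -0.04, 0.03, -0.07, 0.00, 0.17, -0.13 and -0.22. Pcdhb12 was steady: its 9 arrays lay between -2.78 and -2.49. Pcdhb1 cleared background on 0 arrays with either probe, and Pcdhb2 and Pcdhb11 on 1 array each.

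Pcdhb7 was read by 2 probes that did not give the same result. The brighter one, at chr18:30162660-30162719, differed by 0.05 (SE 0.11; -0.01 without OV replicate 3). The other, inside the coding exon at chr18:30161482-30161541, differed by -0.93 (SE 0.26, unadjusted p = 0.00618 and adjusted p = 0.289 in limma). Its sequence is printed so that it can be placed.
Pcdhb7: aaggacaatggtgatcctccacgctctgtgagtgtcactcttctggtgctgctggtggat
On that probe the OV arrays read -1.87, -1.67, -1.19 and -0.97 and the OV+E2 arrays -1.82, -2.0, -2.76, -2.42 and -2.79. The groups met only on slide 1. Within slide 1 the difference was -0.33 and within slide 2, which has 1 OV array, it was -1.69; without OV replicate 3 it was -0.85.

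The gamma cluster held the lowest p of the family. Pcdhga2, a variable-exon member, read -3.22, -3.43, -2.47 and -2.91 on the OV arrays (mean -3.01 ± 0.41 SD, n = 4) and -3.80, -3.93, -3.92, -3.91 and -4.01 on the OV+E2 arrays (mean -3.91 ± 0.08 SD, n = 5). The groups did not overlap, with or without OV replicate 3, and the treated arrays lay close together. This is a log2 difference of -0.91 (SE 0.18), a 1.87-fold lower signal, with unadjusted p = 0.000634 and adjusted p = 0.251 in limma. It was -0.82 within slide 1, -1.04 within slide 2 and -0.73 without OV replicate 3. On the authors' deposited value table the same model gave -0.79 with adjusted p = 0.0428, a level that 0.23% of its probes passed, and an adjusted p of 0.124 once OV replicate 3 was left out. When limma weighted arrays by their quality on the scanner values it gave -0.65 with adjusted p = 0.0270, in a fit where 1300 of 30215 probes (4.3%) passed and 0 had passed without weights. The direction was the same in each of these fits, and the gene passed the adjusted level in 2 of them, both of which kept OV replicate 3.

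Pcdhga4, also a variable-exon member, was lower too on its coding probe (chr18:30593872-30593931). The OV arrays read -3.12, -3.04, -2.19 and -2.65 and the OV+E2 arrays -3.31, -3.08, -3.65, -3.46 and -3.25. OV replicate 1 and OV+E2 replicate 2 overlap by a small margin. The log2 difference was -0.60 (SE 0.20, unadjusted p = 0.0159 and adjusted p = 0.367 in limma), -0.41 within slide 1, -0.80 within slide 2 and -0.41 without OV replicate 3. A second probe farther 3′ (chr18:30594850-30594909) went the other way at 0.26 (SE 0.23), and at 0.43 without OV replicate 3.

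The third gamma gene at the unadjusted level was the 3′-end probe named Pcdhgc5. It read 1.49, 1.46, 3.08 and 1.23 with vehicle and 0.97, 1.29, 0.88, 0.99 and 0.61 with estradiol. OV replicate 3 was the highest by a wide gap. On the log2 scale the difference was -0.87 (SE 0.35, unadjusted p = 0.0363 and adjusted p = 0.452 in limma), and it shrank to -0.44 without that array (unadjusted p = 0.0151). Within slide 1 it was -0.88 and within slide 2 it was -0.40, and with the slide as a block it was -0.70 with an unadjusted p of 0.0915.

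The 2 other probes of the gamma 3′ end did not follow it. The first, named Pcdhga7, differed by 0.35 (SE 0.25), with OV replicate 3 lowest at 0.69 where the Pcdhgc5 probe had it highest. The second differed by -0.06 (SE 0.09), with all 9 arrays between 5.12 and 5.39. The shared 3′ end of the cluster therefore gave 3 readings with 2 signs, and without OV replicate 3 they were -0.44, 0.05 and -0.07.

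The other tested gamma genes, all variable-exon members, lay above 0 on 9 arrays. Pcdhga9 differed by 0.28 (SE 0.24, unadjusted p = 0.276 and adjusted p = 0.569 in limma; 0.35 without OV replicate 3), and Pcdhgb8 by 0.45 (SE 0.53, unadjusted p = 0.416 and adjusted p = 0.655), where OV replicate 2 at -7.29 was far below the rest; Pcdhgb8 differed by -0.15 without OV replicate 2 and by 0.86 without OV replicate 3. Pcdhga8 differed by 0.04 (0.16 without OV replicate 3). Pcdhgb7 differed by 0.11 (SE 0.47) and turned to -0.35 without that array. Pcdhgb5 and Pcdhgb6 differed by 0.30 (SE 0.42) and 0.17 (SE 0.28). Without OV replicate 3 these became 0.73 and 0.45, with unadjusted p of 0.0392 and 0.0446 in limma. They are the gamma genes among the 4 higher ones counted above. For both, slides disagreed in sign: -0.31 and 1.49 for Pcdhgb5, -0.35 and 0.92 for Pcdhgb6. Pcdhgb5 cleared background on 1 OV array and on all 5 OV+E2 arrays; with array weights, the fit in which 4.3% of probes passed, it differed by 0.95 with adjusted p = 0.0451 in limma.

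Of 16 gamma genes 6 were too dim to test, against 3 of 18 beta genes, 1 of 8 alpha genes and 1 of 12 non-clustered genes. Pcdhga1 cleared background on 0 arrays, Pcdhga3, Pcdhgb4 and Pcdhga11 on 1, Pcdhga5 on 2 and Pcdhga10 on 3. Pcdhgb4 was above background on 1 OV array and on no OV+E2 array. The second Pcdhgb5 probe was at 0 arrays as well, and so was the variable-exon probe of Pcdhga7. For these untested members and probes the arrays give no level, only that the signal was not well above background. Pcdhga7 counts as tested through a probe at the shared 3′ end, and Pcdhgc5 has only a probe there.

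Among the non-clustered genes, both of those whose representative probe reached the unadjusted level were higher with estradiol. Over their 22 tested probes 3 were higher and 2 lower at that level, together 22.7%. Of all tested probes 3.21% were higher and 7.17% lower at that level, together 10.4%, and whether the shares differ was not tested. Pcdh20, known from work on the placement of cortical neurons, read 0.10, 0.19, -0.42 and -0.26 with vehicle and 0.28, 0.47, 0.42, 0.15 and 0.27 with estradiol. Only OV replicate 2 reached the treated range, just above OV+E2 replicate 4. The fitted log2 difference was 0.42 (SE 0.14, unadjusted p = 0.0176 and adjusted p = 0.375 in limma), with 0.42 and 0.54 within the slides and 0.31 without OV replicate 3.

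Pcdh18, whose protein binds the reelin-pathway adaptor Dab1, read -0.33, -0.29, -0.95 and -0.34 with vehicle and -0.14, -0.19, -0.09, -0.10 and -0.10 with estradiol. The groups did not overlap, with or without OV replicate 3, as for 2.89% of all probes in this direction on 9 arrays and 5.02% on 8. The log2 difference was 0.36 (SE 0.14, unadjusted p = 0.0344 and adjusted p = 0.446 in limma). OV replicate 3 made up much of its size, since it was 0.20 without that array (unadjusted p = 0.00730). Within slides 1 and 2 it was 0.36 and 0.24, and with the slide as a block the unadjusted p was 0.0767.

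Pcdh1, an adhesion protein of epithelia and brain, was read by 2 probes that gave the same difference of -0.29. The dimmer probe (chr18:31119041-31119100) was the tighter one. Its OV arrays read -2.95, -2.89, -2.81 and -2.85 and its OV+E2 arrays -3.07, -3.26, -3.17, -3.13 and -3.19. The groups did not overlap, as for 4.02% of all tested probes in this direction. The SE was 0.08, and limma gave unadjusted p = 0.00630 and adjusted p = 0.289. The values within slides were -0.28 and -0.31, and without OV replicate 3 the difference was -0.27. With array weights (4.3% of probes passed) the adjusted p in limma was 0.0386. The brighter probe had an SE of 0.22 and overlapping groups, with -0.11 without OV replicate 3. Pcdh1 lies on chromosome 18 beyond the gamma cluster, and the same region holds Pcdh12, an endothelial member that cleared background on 1 OV array and on no OV+E2 array.

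Pcdh11x, an X-linked member, was lower on both probes. The brighter probe read -3.12, -2.91, -1.39 and -3.01 with vehicle and -3.15, -3.33, -2.95, -3.14 and -3.21 with estradiol. OV replicate 3 stood far above all others. The difference of -0.55 (SE 0.33, unadjusted p = 0.128 and adjusted p = 0.517 in limma) was -0.14 without OV replicate 3. The dimmer probe (chrX:109930225-109930284) differed by -0.81 (SE 0.32, unadjusted p = 0.0314 and adjusted p = 0.436), and by -0.51 without that array; with the slide as a block its unadjusted p was 0.0796.

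Pcdh15, a tip-link protein of hair cells, had the family's widest disagreement between probes. The brightest probe (chr20:14910672-14910731) read -0.15, 0.23, 4.31 and 0.84 with vehicle and -0.37, -0.05, 0.32, 0.49 and 0.48 with estradiol. The single value of 4.31 is OV replicate 3. The difference was -1.13 (SE 0.81, unadjusted p = 0.195 and adjusted p = 0.532 in limma), and -0.13 without it. A second probe (chr20:14660926-14660985) differed by 0.37 (SE 0.16, unadjusted p = 0.0443 and adjusted p = 0.470), and by 0.44 without OV replicate 3; with the slide as a block its unadjusted p was 0.105. It cleared background on 2 OV arrays and all 5 OV+E2 arrays, and with array weights (4.3% of probes passed) it differed by 0.60 with adjusted p = 0.0436 in limma. A further probe differed by 0.03 (SE 0.15), and by 0.00 without OV replicate 3.

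**Figure D3:**
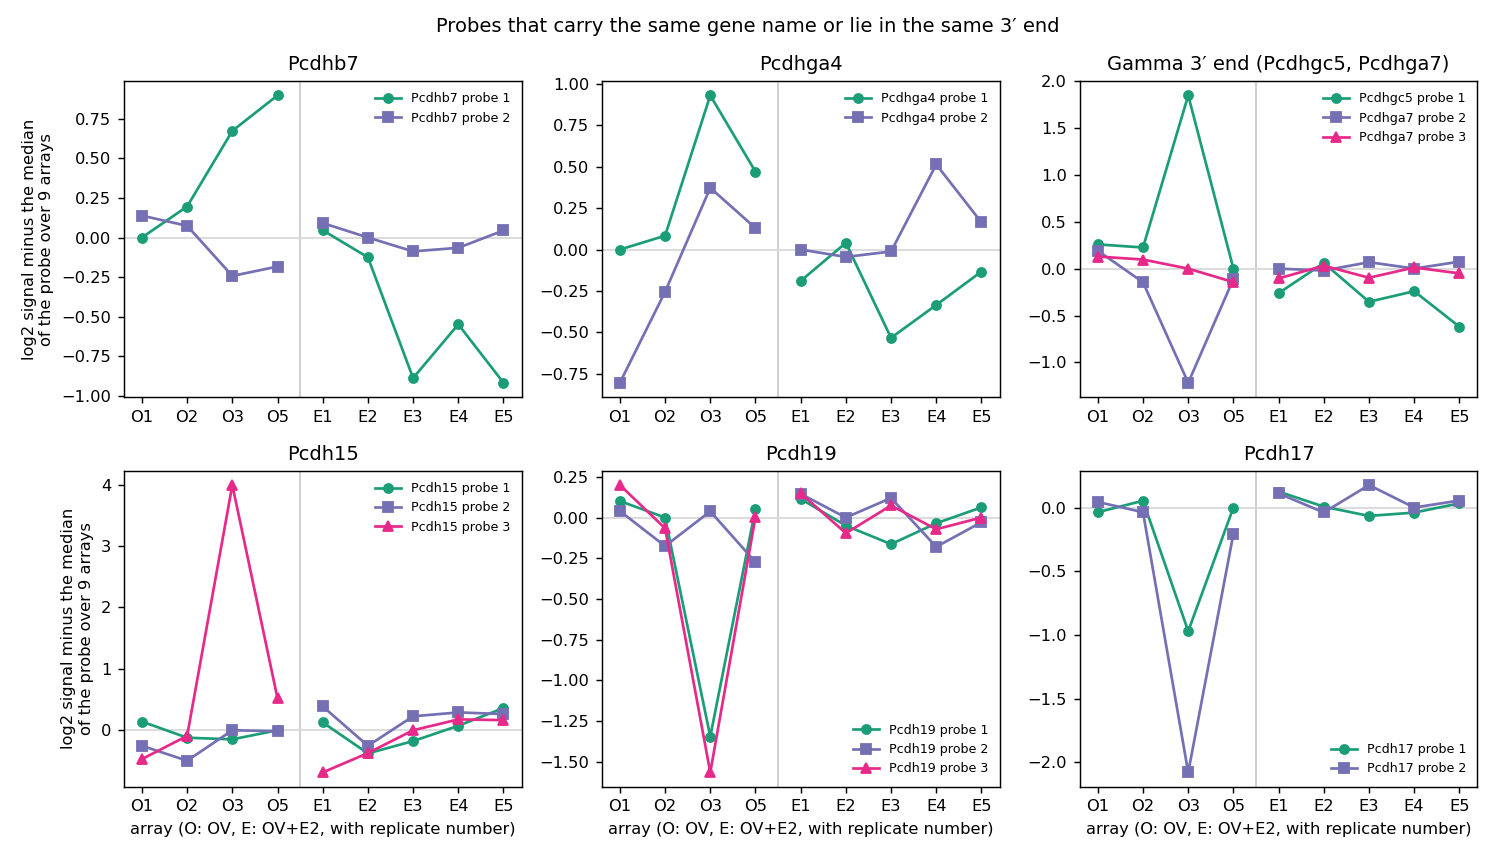
Log2 signal of each probe minus its median over the 9 arrays (y axis) by array (O for OV, E for OV+E2, with the replicate number) for probes that share a gene name or lie at the gamma 3′ end. On OV replicate 3 the Pcdhgc5 probe and the third Pcdh15 probe stand above the other arrays, while both Pcdh17 probes and 2 of the 3 Pcdh19 probes lie below them.

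The remaining non-clustered members differed little once OV replicate 3 was set aside. Pcdh19, an X-linked gene of female-limited epilepsy, gave 0.28, 0.10 and 0.37 on its 3 probes, and -0.07, 0.15 and -0.03 without that array. Pcdh17, known at corticostriatal synapses, gave 0.25 and 0.63, and 0.01 and 0.13 without it. Pcdh8, an activity-induced member that acts on N-cadherin at synapses, had a difference of 0.46 (SE 0.32) that became 0.09. Pcdh7 ran from -0.02 to 0.27 over 4 probes, and Pcdh9 gave 0.05 and 0.09; without that array they ran from -0.15 to 0.08 and gave -0.01 and -0.04. Pcdh10 was steady: the OV arrays lay between 1.12 and 1.25 and the OV+E2 arrays between 1.20 and 1.38, a difference of 0.14 (SE 0.08), and of 0.12 without OV replicate 3. Over the family, 10 genes had several tested probes and in 5 of them the probes differed in sign.

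The genes known to control or to work with protocadherins did not pass the test either. Of 21 listed regulators of clustered promoters 19 were tested, 17 were higher and 2 lower with a median of 0.16, and 0 passed at the adjusted level. At an unadjusted p under 0.05 stood Smchd1, a chromatin protein that represses the clusters (0.30, unadjusted p = 0.0421 in limma), and Wapl, which releases cohesin (0.31, unadjusted p = 0.0462). CTCF itself differed by 0.16 (SE 0.09), and Hdac1, a histone deacetylase, by -0.43 (SE 0.21). The median of the list was 0.09 without OV replicate 3.

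Of 26 listed intracellular partners 24 were tested, 15 higher and 9 lower, with a median of 0.10 that was 0.03 without OV replicate 3. Ptk2, the focal adhesion kinase that alpha and gamma protocadherins inhibit, differed by 0.32 (unadjusted p = 0.0189 in limma). Of 41 other cadherin superfamily genes 37 were tested, 23 higher and 14 lower, with a median of 0.05 (0.02 without that array). The one at an unadjusted p under 0.05 was the desmoglein Dsg2 (0.35, unadjusted p = 0.0138). Again 0 genes of either list passed at the adjusted level.

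Cell type markers moved beside the protocadherins, and their part in these results was not tested. Of 10 neuronal markers 9 were higher (median 0.28, and 0.12 without OV replicate 3), with a mean level of 2.76 to 3.30 on the OV arrays and 3.35 to 3.40 on the OV+E2 arrays. All 6 oligodendrocyte markers were lower (median -0.37, and -0.23 without that array), from 4.98 to 5.76 with vehicle and 4.71 to 5.16 with estradiol. Microglial markers were lower in 4 of 6 (median -0.32, and -0.27 without it; 1.16 to 1.34 against 0.81 to 1.02) and endothelial markers in 4 of 6 (median -0.31, and -0.14 without it; 1.25 to 1.72 against 1.08 to 1.34, the 1.72 being OV replicate 3). OV replicate 3 also gave the neuronal 2.76, the oligodendrocyte 5.76 and the microglial 1.34. Astrocyte and precursor markers both had a median of -0.01, and of -0.14 and 0.08 without that array. All 6 markers of amygdala and neighbouring cortex were tested and 5 cleared background on all 9 arrays. Their median difference was -0.09 (0.00 without OV replicate 3). Their mean level was -0.85 to -0.44 in OV, the -0.44 being OV replicate 3, and -0.95 to -0.59 in OV+E2. Markers of neighbouring structures varied between arrays and were mostly higher with estradiol. All 5 choroid plexus markers were higher (median 0.51, and 1.06 without OV replicate 3). Their mean level was -1.94 to 1.43 in OV, the 1.43 being OV replicate 3, and 0.04 to 1.53 in OV+E2. Of 6 thalamus markers 5 were higher (median 0.23, and 0.27 without OV replicate 3). Their mean level was 0.84 to 0.98 in OV and 0.86 to 1.87 in OV+E2. Slc17a6 is counted both here and among the neuronal markers. All 6 thalamus markers cleared background on all 9 arrays, so clearing background does not tell the structures apart.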

How the data were processed

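The authors deposited, per the file headers, 1 scanner file per array (Agilent Feature Extraction 10.7.3.1; the submitters' processing notes name version 9.1) with the processed signal as an intensity on a linear scale. The authors' value table, also deposited, holds intensities, and their log2 was used here. On the log2 scale its column for OV replicate 3 correlated at 0.938 with that array's scanner values, against at least 0.9999 on the other 8. From the scanner files, control spots and outlier-flagged spots were left out, spots of a probe were averaged, and log2 signal was centred on each array's 75th percentile. Probes flagged well above background on 4 or more of 9 arrays entered the test with limma 3.58.1 (R 4.3.3) and adjusted by Benjamini-Hochberg over all 30215 tested probes; the fit was tested on simulated data. Number of arrays limits the precision.

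Full statistics are given for genes at an unadjusted p under 0.05 and for the 2 of smallest p per direction in each set; other genes named are said to be chosen afterwards or are covered by their difference only. Members and lists were chosen with earlier results of these data known. Of 73 probes, 46 matched current RefSeq genes by accession, 15 by symbol, 10 by synonym and 2 not at all; all 9 alpha probes fall to 1 current gene entry. Each array is 1 rat. Alternatives were other scalings, background correction and filters, the authors' table, array weights, blocks for slide and replicate number, and leaving out each array.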

Additional observations from a re-analysis of the deposited data

Results flagged for a closer look

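In 6 of 50 groups of arrays examined for the protocadherin genes with full statistics, the highest or lowest array stood apart from the rest by Dixon's test; chance alone gives about 1 in 20. In 5 of the 6 the array was OV replicate 3. It was the highest OV array for Pcdh11x at -1.39, for Pcdhb4 at -1.77 and for Pcdhgc5 at 3.08. It was the lowest OV array for Pcdh18 at -0.95 and for Pcdha4 at -5.46. The sixth was OV+E2 replicate 2, the lowest treated array for the Pcdh15 probe starting at 14660926, at -4.82.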

How the results depend on the processing

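The count of 0 genes at the adjusted level held in every alternative except the authors' table (1 gene, Pcdhga2) and array weights (2 genes, Pcdhga2 and Pcdhgb5), both on all 9 arrays, where 0.23% and 4.3% of all probes passed; both lost these without OV replicate 3. The 6 lower and 2 higher genes at the unadjusted level became 5 and 4 with quantile normalization, 7 and 4 on the authors' table (also without OV replicate 3), 9 and 4 there with a slide block, 8 and 6 with array weights, 8 and 5 with these and without OV replicate 3, 4 and 1 with the slide as a block, and 4 and 1 with a replicate block. The share of all probes at the unadjusted level is not given for these fits. Whether the family stood apart from all probes in them was therefore not tested. Same-numbered samples correlated at 0.17, -0.08, -0.01 and 0.10. These values gave no sign that the numbers pair the animals, but so few pairs cannot exclude it. Leaving out each array gave 3 to 6 lower genes (3 without OV+E2 replicate 1 or 5), 1 to 4 higher genes, and medians of -0.12 to 0.00 (alpha), -0.06 to 0.03 (beta), -0.07 to 0.20 (gamma) and 0.01 to 0.15 (non-clustered). Normexp moved the median of all probes to -0.11 and those of alpha, beta and gamma to -0.31, -0.25 and -0.32, and turned Pcdha4 (-0.31), Pcdhb21 (-0.17), Pcdhb3 (-0.18), Pcdhga9 (-0.26), Pcdhgb8 (-0.32) and the Pcdh15 probe starting at 14660926 (-0.26). The gamma median was -0.45 with no filter, where dim members enter, and -0.60 with probes above background on all 9 arrays, where dimmer members drop out. The median of all probes was -0.13 and -0.02 in these settings, in the same order. The authors' table gave medians of -0.26 (alpha) and -0.086 (beta), and with a slide block -0.31 (alpha); array weights without OV replicate 3 gave -0.084 (beta). Pcdha4 turned to -0.26 on the authors' table, -0.086 there without OV replicate 3, -0.31 there with a slide block and -0.0069 with array weights without OV replicate 3; leaving out each array took it from -0.086 (without OV replicate 3) to 0.57. Pcdhgb8 then ranged from -0.15 (without OV replicate 2) to 0.86. Apart from the filters, the cause was not tested. The 4 alternatives that combine the authors' table or array weights with another choice, or leave out the 3′-end probes, were chosen after seeing the data. Of 16 untested probes 8 are gamma, so dim signal limits that cluster most.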
